A study of Arabidopsis thaliana with 12 samples.

Results

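The glutathione transferases of the tau class (GSTU1 to GSTU28) and the phi class (GSTF2 to GSTF14) are 41 genes of the 32833 Arabidopsis loci in the deposited count table. They were taken by family name and locus, as 28 tau and 13 phi genes, with earlier results of these data known. The study measured RNA in 12 libraries from roots of 7-day-old Col-0 seedlings, the wild type, with or without CNQX, a blocker of animal ionotropic glutamate receptors, after excision of the root tip. Seedlings were held for 1 h on mock plates or on plates with 50 µM CNQX. About 130 µm of tip was cut off, and the plants went to new MS plates. The stump, about 100 µm above the cut, was collected at 30 min, 4 h, 14 h and 24 h, 1 library for each treatment at each time. Uncut plants spent 14 h on mock or CNQX plates before about 100 µm of their tip was taken, with 2 libraries per treatment. All libraries are of the same genotype, and the labels do not say whether libraries of a group came from separate cultures, so the p-values cover no more than the spread seen among these libraries. The series text names 16 h where the labels name 24 h, and the labels were followed.

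Glutathione transferases join the tripeptide glutathione to reactive, mostly hydrophobic molecules, and the conjugates are then moved into the vacuole by ABCC transporters. The tau and phi classes are the large plant classes, first known for the detoxification of herbicides. Several also act as peroxidases or bind and carry plant hormones, flavonoids and camalexin. Many of their genes respond to wounding, auxin, salicylic acid and foreign chemicals, in part through TGA transcription factors that bind TGACG motifs.

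The genes lie largely in tandem arrays. In the RefSeq annotation of TAIR10.1, 23 of the 28 tau genes and 6 of the 13 phi genes stand next to a relative of their own class. GSTU1 to GSTU7 follow each other on the minus strand of chromosome 2, between positions 12617936 and 12632538. On chromosome 1, GSTU19 to GSTU23 lie between 29467412 and 29488007, and GSTU24 to GSTU26 between 5869543 and 5876620. GSTF4 to GSTF7 lie on the same chromosome between 658578 and 666471, and GSTF9 and GSTF10 on chromosome 2 between 13138882 and 13142676. Every tau gene has 2 coding exons, and the phi genes have 2 to 5. The coding sequences of tau pairs were identical at a median of 55.07% of aligned positions, those of phi pairs at 52.63% and those of a tau and a phi gene at 47.21%. The closest pairs were GSTF2 with GSTF3 at 94.52% and GSTF6 with GSTF7 at 94.29%, so that counts of these 4 genes are uncertain where reads could not be told apart. Of all stretches of 50 bases in the exons of GSTF6 and GSTF7, 10.3% and 10.04% occur more than once in the genome. For GSTF2 and GSTF3 the share was 0.0%. Exons of 6 tau and 6 phi genes lie in part, or for GSTF11 wholly, within another annotated gene. The overlap took 1222 of 1471 exon bases in GSTF2, 643 of 982 in GSTF4 and 934 of 934 in GSTF11. In GSTU2 it took 676 of 951 and in GSTU7 611 of 887. The strand setting of the counting is not given in the sources used here, so the counts of these genes carry this limit.

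The libraries held 1575446 to 3302325 counts each (median 2122122). Levels are given as CPM, counts scaled to a common library size after TMM correction, and 3 counts stood for 0.909 to 1.90 CPM of the total counts. One library, mock at 24 h, differed from the rest. Ribosomal RNA loci held 1.75% of its counts, against 5.32% to 10.2% in the others, and 37.6% of its reads were not uniquely aligned, against 53.3% to 65.3%. Where a call or a value turned on it, the value without it is given as well. The uncut tissue is the tip itself and the stump is tissue above it, so that excision and position along the root cannot be told apart. Uncut plants also spent 14 h on mock or CNQX plates, whereas cut plants spent 1 h on them and went to new plates. Time on plates and the transfer therefore cannot be told apart from excision either. The summed level of 5 root cap markers was 53.1 to 178 CPM in uncut libraries and 7.47 to 28.8 CPM in the stumps. The sum of 7 endodermis markers was 3.82 to 8.94 CPM in uncut libraries, 254 to 550.0 CPM at 14 h and 71.9 to 186 CPM at 24 h. Photosynthetic markers, 4 in number, stood at 3.76 to 7.0 CPM in uncut tips and at 130.0 to 386 CPM at 24 h. The part of these differences in the results on the transferases was not tested, and in bulk tissue fewer cells of a type and less RNA per cell cannot be told apart.

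More tau and phi genes were higher in the stumps than in the tips. Of the 41 members, 31 passed the filter on low counts and were tested, 23 tau and 8 phi genes. For the mean of the 4 times against uncut, 13 of the 31 rose and 1 fell at an adjusted p under 0.05 (edgeR quasi-likelihood test, Benjamini-Hochberg over 16820 genes). Among all genes tested, 13.6% rose and 11.9% fell. The median log2 fold change of the tested members was 1.17, against 0.02 over all genes. Since a member can pass the filter through the stumps alone, these counts describe the tested members. In 5 of the 31, GSTU4, GSTU5, GSTU17, GSTU19 and GSTF10, every stump library lay above every uncut library, which held for 4.89% of all genes tested.

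Both class sums were higher in the stumps, with no overlap with the tips; no test was made on the sums. The tau genes together held 852 to 1522 CPM in the 4 uncut libraries and 2181 to 3976 CPM in the 8 stump libraries, with a median of 2592 CPM. The phi genes held 1158 to 2119 CPM uncut and 2596 to 3423 CPM cut, with a median of 2706 CPM. The mean over stumps was 2.2 times the uncut mean for tau and 1.9 times for phi. The ratio of the tau to the phi sum was 0.63 to 1.10 in the uncut libraries, which overlapped the stump range of 0.80 to 1.28. The treatments differed in when the sums were highest, and within each treatment both classes were highest at the same time. In mock this was 24 h, with 2932 CPM for tau and 3423 CPM for phi, both in the library that stands apart. In CNQX it was 4 h, with 3976 CPM for tau and 3098 CPM for phi. The CNQX 24 h library held 2181 CPM of tau and 2722 CPM of phi genes. Each treatment has 1 library per time, so no order of the times could be tested.

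**Figure D1:**
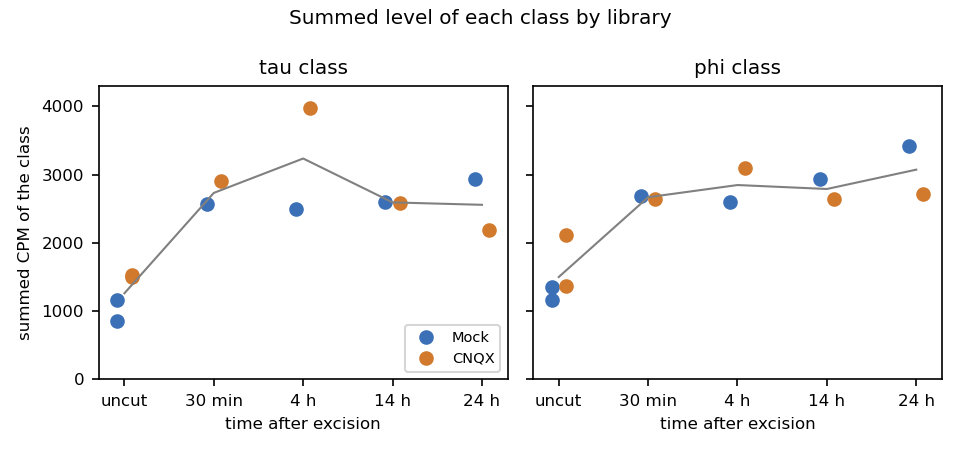
Summed CPM (vertical axis, linear, from 0) of the 28 tau genes (left) and 13 phi genes (right) in each library, by time after excision (horizontal axis). Points are single libraries, blue for mock and orange for CNQX, and the line joins the mean of each time; all 8 stump libraries lie above all 4 uncut libraries in both classes.

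A few abundant genes led each sum. At each time after excision the mock value is given before the CNQX value. Per kilobase of exon, GSTU19 or GSTU25 led the tau genes in all 4 uncut libraries and in 6 of the 8 stump libraries, the exceptions being GSTU26 in CNQX at 30 min and GSTU8 in mock at 24 h. Among the phi genes GSTF8 led in 3 uncut libraries and GSTF9 in 1, whereas GSTF10 led in 7 stump libraries and GSTF8 in CNQX at 4 h. GSTU19 (AT1G78380), one of the main tau enzymes of unstressed plants, stood at 246 and 252 CPM in the mock and 296 and 419 CPM in the CNQX uncut libraries. After excision it was at 617 and 576 CPM at 30 min, 607 and 989.6 CPM at 4 h, 584 and 545 CPM at 14 h and 593 and 419.9 CPM at 24 h. The stumps lay above all uncut libraries, the CNQX 24 h library by under 1 CPM, and the log2 fold change for excision was 1.02 ± 0.25 (adjusted p = 0.0114), a call that was lost without the CNQX uncut replicate 1 library (adjusted p = 0.0591). GSTU25 (AT1G17180), known for conjugating the explosive trinitrotoluene, stood at 189.6 and 351 CPM in the mock and 524 and 377 CPM in the CNQX uncut libraries. Its levels in the stumps were 319 and 343 CPM at 30 min, 734 and 1131 CPM at 4 h, 439 and 633 CPM at 14 h and 108 and 349.8 CPM at 24 h. Its groups overlapped, the mock 24 h library being the lowest of all 12, and it did not pass the test for excision (0.29 ± 0.28 (adjusted p = 0.464)).

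GSTF8 (AT2G47730), known for its stress-responsive promoter and a plastid-targeted form, stood at 552 and 779 CPM in the mock and 1186 and 773 CPM in the CNQX uncut libraries. The stump libraries had 1245 and 1117 CPM at 30 min, 1372 and 1895 CPM at 4 h, 1313 and 1493 CPM at 14 h and 1166 and 941 CPM at 24 h. One CNQX uncut library lay inside the stump range, and the excision change of 0.69 ± 0.25 (adjusted p = 0.0585) did not pass. GSTF10 (AT2G30870), also called ERD13, stood at 326 and 236 CPM in the mock and 419.8 and 343 CPM in the CNQX uncut libraries. The cut roots gave 929.8 and 966 CPM at 30 min, 677 and 779.6 CPM at 4 h, 1027 and 886 CPM at 14 h and 1252 and 1032 CPM at 24 h. The 4 uncut libraries were the 4 lowest, and the gene rose for excision by 1.51 ± 0.24 (adjusted p = 0.00148). Its neighbour GSTF9 (AT2G30860), with 77.62% coding identity, did not pass at any time. GSTF9 stood at 434 and 112 CPM in the mock and 453 and 193 CPM in the CNQX uncut libraries. In the stumps it stood at 506 and 552 CPM at 30 min, 502 and 339.7 CPM at 4 h, 515 and 217 CPM at 14 h and 608 and 493 CPM at 24 h. The mock uncut replicate 2 and CNQX uncut replicate 2 libraries were the lowest, and the other uncut libraries lay within the stump range.

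**Figure D2:**
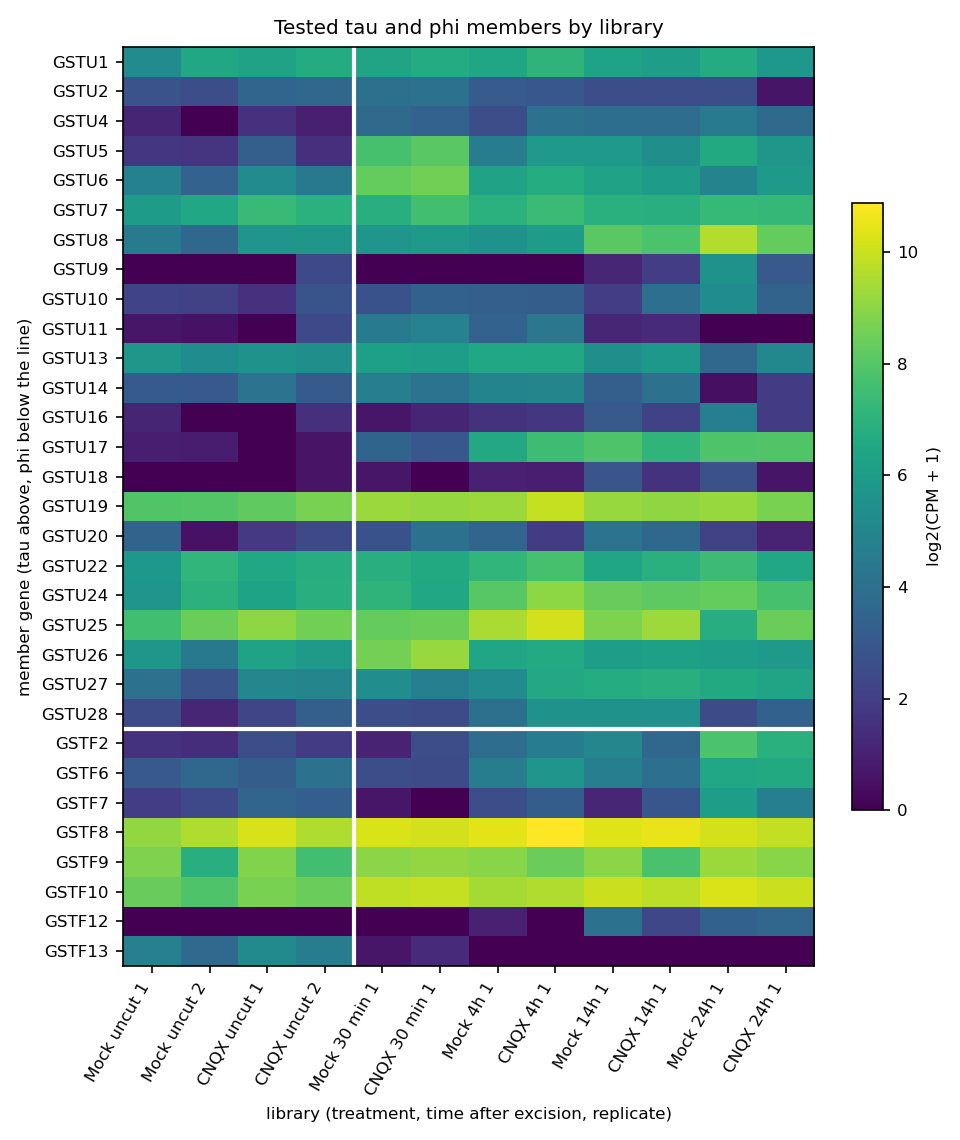
Level of the 31 tested members (rows, tau above and phi below the white line) in the 12 libraries (columns, the 4 uncut ones left of the white line), as log2(CPM + 1) from dark (0) to yellow (highest). GSTU17 is dark in the uncut columns and bright from 4 h, GSTF13 shows the opposite order, and GSTU5, GSTU6, GSTU11 and GSTU26 are brightest at 30 min.

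The largest rise for excision among the called members was that of GSTU17 (AT1G10370), known as ERD9, early responsive to dehydration. GSTU17 stood at 0.875 and 0.851 CPM in the mock and 0 and 0.47 CPM in the CNQX uncut libraries. After excision it was at 10.2 and 6.66 CPM at 30 min, 94 and 181 CPM at 4 h, 234 and 139 CPM at 14 h and 238 and 247 CPM at 24 h. It was near 0 in every uncut library, higher in both 30 min libraries and high from 4 h on, with no overlap between groups. Its log2 fold changes were 3.94 ± 0.62 (adjusted p = 0.00447) at 30 min, 7.99 ± 0.53 (adjusted p = 1.74e-05) at 4 h, 8.41 ± 0.52 (adjusted p = 6.87e-06) at 14 h and 8.80 ± 0.52 (adjusted p = 2.04e-06) at 24 h. The 4 uncut libraries together held only 6 counts, and the ratio of summed CPM at 24 h was 381, with a 95% exact Poisson interval of 175 to 1040.0 that covers counting error only. The 30 min call was lost without the mock 30 min library (adjusted p = 0.0606). The gene next to it, GSTU18 (AT1G10360), shares 81.58% of its coding sequence with it and overlaps it by 71 exon bases on the same strand. GSTU18 stood at 0 and 0 CPM in the mock and 0 and 0.47 CPM in the CNQX uncut libraries. Its levels in the stumps were 0.569 and 0 CPM at 30 min, 1.03 and 0.911 CPM at 4 h, 6.34 and 1.99 CPM at 14 h and 5.56 and 0.552 CPM at 24 h. Its counts were low throughout, 41 in the 8 stump libraries against 1 in the uncut ones. It passed at 14 h (4.74 ± 1.29 (adjusted p = 0.0267)) and 24 h (4.14 ± 1.34 (adjusted p = 0.0332)), and both calls were lost in DESeq2 and without several single libraries. At every time after excision GSTU17 held at least 94.0% of the length-scaled level of the pair.

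At 30 min 6 of 23 tested tau genes (26.1%) and 1 of 8 phi genes (12.5%) rose. In all, 7 of 31 members rose and 1 fell, against 3.23% and 1.2% of all genes tested. They were 6 tau genes and 1 phi gene, with log2 fold changes of 6.13 ± 0.53 for GSTU5, 4.41 ± 0.76 for GSTU11, 3.94 ± 0.62 for GSTU17, 3.92 ± 0.41 for GSTU6, 3.46 ± 0.72 for GSTU4, 3.30 ± 0.37 for GSTU26 and 1.53 ± 0.30 for GSTF10. The median over the 23 tested tau genes was 0.96 and that over the 8 phi genes 0.17. The 4 times share their uncut libraries, and each time rests on 1 mock and 1 CNQX library. Without the mock 30 min library 3 of these 8 calls stood, and without the CNQX 30 min library 4 stood. GSTU5, GSTU6 and GSTU26 stood in both cases.

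The 6 tau genes that rose at 30 min are shown with the 250 bases before their annotated start, as the tau genes called at the earliest time; the phi gene called with them, GSTF10, is not printed, and of the 6 only GSTU5, GSTU6 and GSTU26 kept the call without either 30 min library. The coordinates, in TAIR10.1, are chr2:12627892-12628141 (minus strand) for GSTU4, chr2:12625791-12626040 (minus strand) for GSTU5, chr2:12621232-12621481 (minus strand) for GSTU6, chr1:26338819-26339068 (minus strand) for GSTU11, chr1:3398359-3398608 (minus strand) for GSTU17 and chr1:5875045-5875294 (plus strand) for GSTU26. Sequences are from RefSeq, 5′ to 3′ on the strand of the gene, and capitals mark TGACG, the core bound by TGA factors, read on either strand (CGTCA), and the G-box CACGTG.
GSTU4: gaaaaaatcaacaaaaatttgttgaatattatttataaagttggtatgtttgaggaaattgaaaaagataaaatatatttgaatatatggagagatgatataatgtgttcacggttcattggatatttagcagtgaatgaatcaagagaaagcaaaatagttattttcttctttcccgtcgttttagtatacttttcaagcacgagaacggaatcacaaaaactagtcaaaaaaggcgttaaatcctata
GSTU5: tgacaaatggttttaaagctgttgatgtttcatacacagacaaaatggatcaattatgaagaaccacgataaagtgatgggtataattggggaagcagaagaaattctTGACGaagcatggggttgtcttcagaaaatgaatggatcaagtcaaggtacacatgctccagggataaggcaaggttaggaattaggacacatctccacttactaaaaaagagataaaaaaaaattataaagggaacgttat
GSTU6: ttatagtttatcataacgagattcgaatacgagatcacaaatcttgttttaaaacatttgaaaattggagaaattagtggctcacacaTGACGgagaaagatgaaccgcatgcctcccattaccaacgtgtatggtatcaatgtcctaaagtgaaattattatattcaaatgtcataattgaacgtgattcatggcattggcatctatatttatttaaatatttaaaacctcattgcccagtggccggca
GSTU11: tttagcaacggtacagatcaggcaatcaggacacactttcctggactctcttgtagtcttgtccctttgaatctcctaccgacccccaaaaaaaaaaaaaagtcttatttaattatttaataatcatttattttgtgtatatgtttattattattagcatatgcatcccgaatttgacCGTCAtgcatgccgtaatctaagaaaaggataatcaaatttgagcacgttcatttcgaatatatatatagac
GSTU17: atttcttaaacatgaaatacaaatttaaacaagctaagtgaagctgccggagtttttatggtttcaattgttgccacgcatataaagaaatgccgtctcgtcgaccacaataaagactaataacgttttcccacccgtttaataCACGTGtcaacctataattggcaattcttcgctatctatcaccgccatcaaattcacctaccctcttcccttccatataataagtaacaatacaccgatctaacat
GSTU26: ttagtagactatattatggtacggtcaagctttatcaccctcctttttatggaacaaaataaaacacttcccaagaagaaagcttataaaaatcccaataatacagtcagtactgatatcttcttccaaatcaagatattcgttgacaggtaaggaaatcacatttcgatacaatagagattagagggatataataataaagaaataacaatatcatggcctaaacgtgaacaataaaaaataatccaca
GSTU5, GSTU6 and GSTU11 hold 1 TGACG each, 142, 162 and 72 bases before the start. GSTU17 holds 1 CACGTG, and GSTU4 and GSTU26 hold neither motif. The TGACG of GSTU5 overlaps a TTGAC, the core of the W-box bound by WRKY factors, and the GSTU5 stretch overlaps the annotated locus AT2G29452. TTGAC, read on either strand and not marked here, is also in the stretches of GSTU4, GSTU11, GSTU17 and GSTU26, and not in that of GSTU6. Over all members, 11 of 28 tau (39.3%) and 3 of 13 phi genes (23.1%) hold TGACG on either strand, against 18.6% of 27443 nuclear protein-coding genes. TTGAC, counted on both strands, was in 60.7% of tau and 53.8% of phi genes, against 44.9% of all. CACGTG was in 7.14% of tau and 7.69% of phi genes, against 6.49% of all. A match is a description of these letters and no evidence of binding.

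In the array on chromosome 2, the members did not all change alike. Of the 6 tested genes of the array, GSTU4, GSTU5 and GSTU6 rose for excision. In the fit of all 12 libraries, GSTU1, GSTU2 and GSTU7 did not pass the test at any time against uncut. GSTU5 (AT2G29450) stood at 2.33 and 2.13 CPM in the mock and 8.91 and 1.88 CPM in the CNQX uncut libraries. The stump libraries had 208 and 276 CPM at 30 min, 23.6 and 56.5 CPM at 4 h, 57.1 and 42.3 CPM at 14 h and 95.8 and 54.1 CPM at 24 h. It was highest at 30 min in both treatments and above every uncut library at all times, with a log2 fold change for excision of 4.49 ± 0.46 (adjusted p = 0.000165). GSTU6 (AT2G29440) stood at 26.3 and 9.79 CPM in the mock and 37.5 and 20.2 CPM in the CNQX uncut libraries. The cut roots gave 321 and 374 CPM at 30 min, 76 and 106 CPM at 4 h, 75.7 and 62.2 CPM at 14 h and 29.2 and 59 CPM at 24 h. The 30 min libraries were the highest, the mock 24 h library lay within the uncut range, and late stumps were lower than early stumps by a log2 fold change of -1.69 ± 0.34 (adjusted p = 0.00508). Its excision change was 2.10 ± 0.33 (adjusted p = 0.00144). GSTU4 (AT2G29460) stood at 1.17 and 0 CPM in the mock and 1.91 and 0.939 CPM in the CNQX uncut libraries. In the stumps it stood at 12.5 and 9.8 CPM at 30 min, 5.14 and 15.5 CPM at 4 h, 14.4 and 13.9 CPM at 14 h and 20.8 and 12.7 CPM at 24 h. It rose as early but was no lower at 24 h than at 30 min, and its excision change was 3.67 ± 0.61 (adjusted p = 0.00184); in the uncut libraries it had 9 counts in all.

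Of the other tested genes of the array, GSTU1 and GSTU7 stayed closer to their uncut levels. GSTU7 (AT2G29420) stood at 64.2 and 92.4 CPM in the mock and 161 and 123 CPM in the CNQX uncut libraries. After excision it was at 112 and 194 CPM at 30 min, 122 and 173 CPM at 4 h, 119 and 111 CPM at 14 h and 158 and 151 CPM at 24 h. It led the array in all libraries except those at 30 min, and its groups overlapped (0.42 ± 0.23 (adjusted p = 0.203) for excision). GSTU1 (AT2G29490) stood at 37.3 and 90.3 CPM in the mock and 76.3 and 103 CPM in the CNQX uncut libraries. Its levels in the stumps were 80.3 and 102 CPM at 30 min, 84.3 and 134 CPM at 4 h, 79.1 and 68.7 CPM at 14 h and 101 and 55.2 CPM at 24 h. Its stumps overlapped the uncut range (0.21 ± 0.29 (adjusted p = 0.645)). GSTU2 (AT2G29480) stood at 5.83 and 5.11 CPM in the mock and 10.8 and 11.7 CPM in the CNQX uncut libraries. The stump libraries had 15.4 and 15.7 CPM at 30 min, 7.71 and 6.83 CPM at 4 h, 5.08 and 4.98 CPM at 14 h and 5.21 and 0.552 CPM at 24 h. It was highest in both 30 min libraries, above every uncut library, but its groups overlapped (-0.30 ± 0.42 (adjusted p = 0.638)). Without the mock 24 h library its change was -3.68 at 24 h, where the CNQX library had 1 count, and -2.6 for late against early stumps. GSTU3 (AT2G29470) had 6 counts in all and was not tested. GSTU1 and GSTU2, neither called for excision, share 85.55% of their coding sequence, and GSTU5 and GSTU6, both called, share 83.11%. GSTU4, which was called, and GSTU1, which was not, share 83.85% and do not lie next to each other. The pairs of the array had a median of 73.96%. Per kilobase of exon, GSTU7 made up 52.0% to 60.7% of the array in uncut libraries. GSTU6 led it at 30 min, with 38.1% in mock and 33.7% in CNQX.

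**Figure D3:**
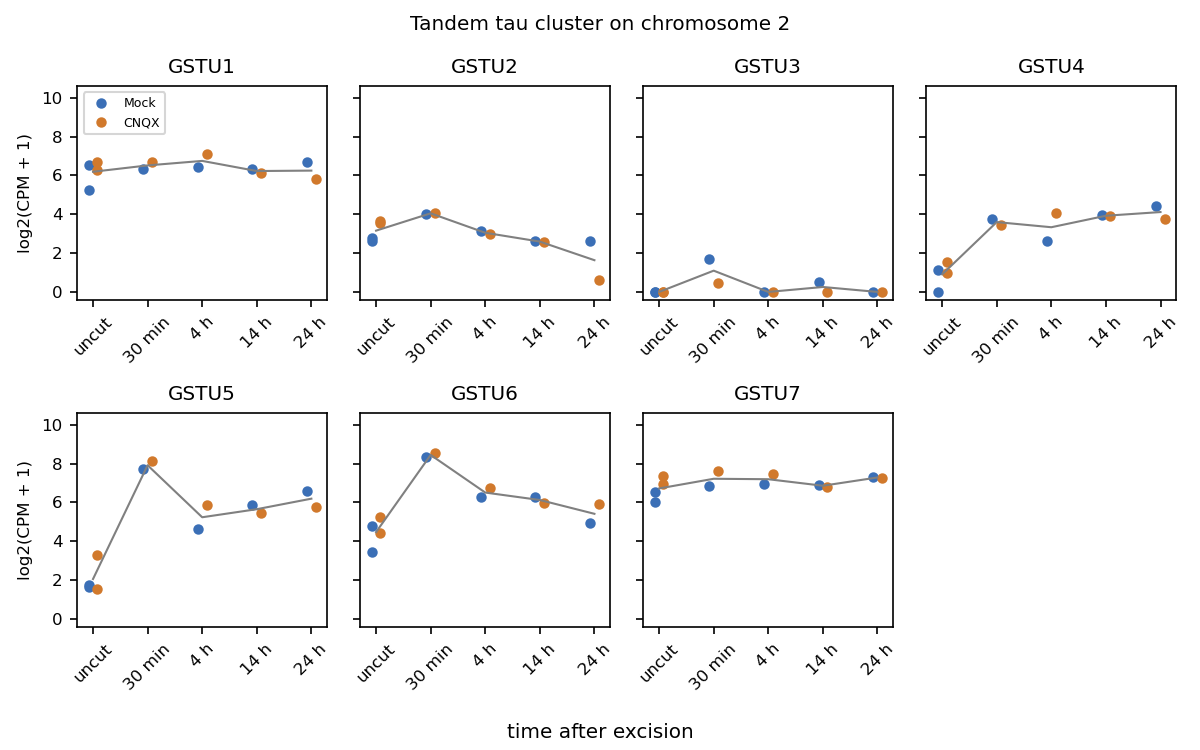
Level of each of the 7 genes of the tau array on chromosome 2, as log2(CPM + 1) (vertical axis), by time after excision (horizontal axis). Points are single libraries, blue for mock and orange for CNQX, and the line joins the mean of each time. GSTU4, GSTU5 and GSTU6 lie higher from 30 min, and GSTU1 and GSTU7 lie near their uncut levels. GSTU2 is highest at 30 min and lowest at 24 h, and GSTU3 is near 0 throughout.

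The array of GSTU24, GSTU25 and GSTU26 on chromosome 1 held 3 time courses. GSTU26 (AT1G17190) stood at 53.1 and 20 CPM in the mock and 75.7 and 55.9 CPM in the CNQX uncut libraries. The cut roots gave 394 and 587 CPM at 30 min, 87.3 and 99.3 CPM at 4 h, 67.2 and 72.2 CPM at 14 h and 65.3 and 56.8 CPM at 24 h. Both 30 min libraries lay far above all others, both 4 h libraries lay somewhat above the uncut range, and the 14 h and 24 h libraries lay within it. Its change was 3.30 ± 0.37 (adjusted p = 0.000372) at 30 min and 0.32 ± 0.38 (adjusted p = 0.533) at 24 h, and without the 30 min libraries its excision call of 1.26 ± 0.28 (adjusted p = 0.00848) was lost (adjusted p = 0.185). GSTU24 (AT1G17170), the other trinitrotoluene-conjugating enzyme, stood at 51.1 and 126 CPM in the mock and 79.5 and 115 CPM in the CNQX uncut libraries. In the stumps it stood at 133 and 92.1 CPM at 30 min, 263 and 517 CPM at 4 h, 329 and 289.6 CPM at 14 h and 316 and 212 CPM at 24 h. All stumps lay above all uncut libraries except the CNQX 30 min library, and those from 4 h on lay highest. Its change was 0.27 ± 0.42 (adjusted p = 0.771) at 30 min, 2.09 ± 0.41 (adjusted p = 0.0183) at 4 h and 1.40 ± 0.32 (adjusted p = 0.00893) for excision. GSTU25, described above, had its highest values at 4 h. Its change at 4 h of 1.39 ± 0.37 (adjusted p = 0.0652) did not pass. The 3 genes share 70.29% to 79.43% of their coding sequences.

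In the array of GSTU19 to GSTU23, GSTU19 made up 62.7% to 84.5% of the length-scaled level in all libraries and was the member called. GSTU22 (AT1G78340) stood at 55.7 and 142 CPM in the mock and 92.2 and 108 CPM in the CNQX uncut libraries. Its stumps, at 112 and 98.4 CPM at 30 min, 142 and 209.9 CPM at 4 h, 85 and 119 CPM at 14 h and 174 and 88.8 CPM at 24 h, overlapped the uncut range (0.34 ± 0.30 (adjusted p = 0.43)). GSTU20 (AT1G78370), also known as FIP1 and as a partner of the jasmonate-conjugating enzyme JAR1, stood at 9.92 and 0.426 CPM in the mock and 2.54 and 4.23 CPM in the CNQX uncut libraries. Its stumps were at 5.69 and 16.1 CPM at 30 min, 10.8 and 2.73 CPM at 4 h, 16.5 and 11.4 CPM at 14 h and 3.47 and 1.1 CPM at 24 h and overlapped the uncut range (0.69 ± 0.66 (adjusted p = 0.476)). GSTU21 (AT1G78360) with 16 counts and GSTU23 (AT1G78320) with 10 were not tested.

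**Figure D4:**
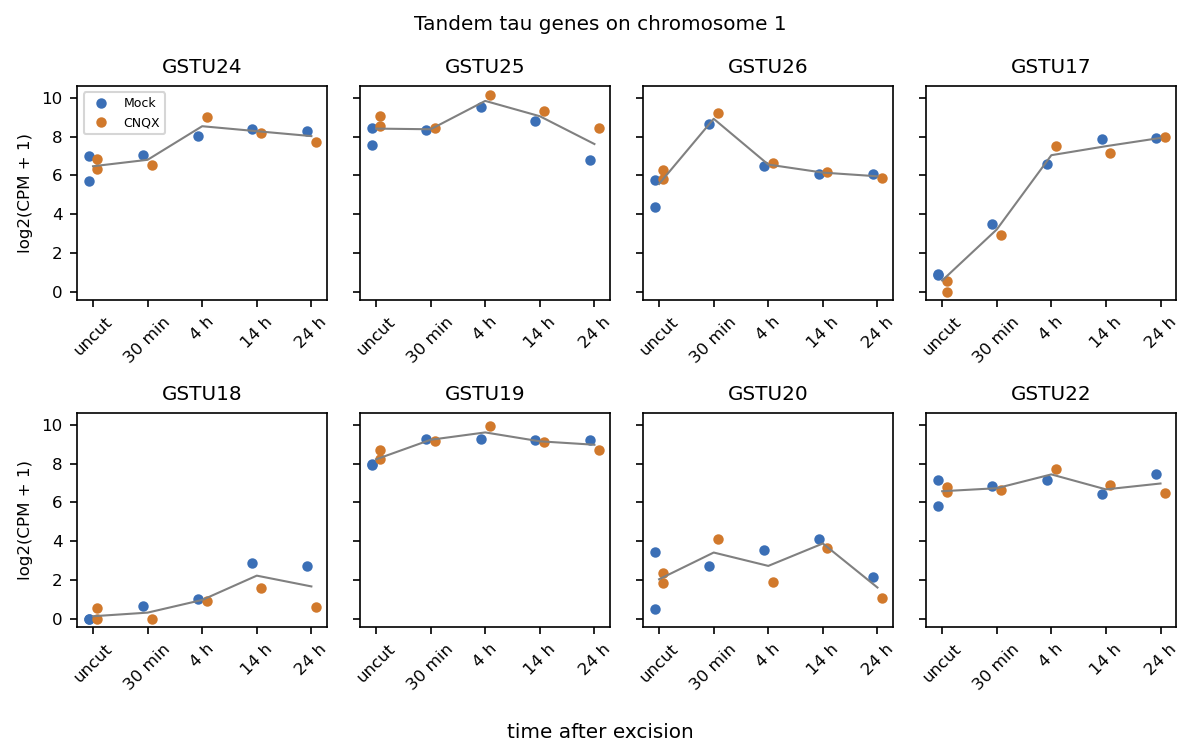
Level of 8 tau genes of the chromosome 1 arrays, as log2(CPM + 1) (vertical axis), by time after excision (horizontal axis), with points and lines as in the plot of the chromosome 2 array. GSTU26 peaks at 30 min, GSTU25 is highest at 4 h, GSTU24 is higher from 4 h on, and GSTU17 climbs to 24 h while GSTU18 stays low.

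A transient course on chromosome 1 was that of GSTU11 (AT1G69930). It stood at 0.583 and 0.426 CPM in the mock and 0 and 4.23 CPM in the CNQX uncut libraries. After excision it was at 22.2 and 27 CPM at 30 min, 9.76 and 18.7 CPM at 4 h, 1.27 and 1.49 CPM at 14 h and 0 and 0 CPM at 24 h. It was high at 30 min and 4 h in both treatments, within the uncut range at 14 h and at 0 counts in both 24 h libraries. It passed at 30 min (4.41 ± 0.76 (adjusted p = 0.00883)) and 4 h (3.57 ± 0.78 (adjusted p = 0.0333)) and fell in late against early stumps, by a ratio of summed CPM of 30.0 (95% exact Poisson interval 13.5 to 83.0, counting error only) and 20.5 without the mock 24 h library (9.22 to 56.6). Its neighbour GSTU12 (AT1G69920) had 25 counts over all libraries and was not tested.

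At 4 h and 14 h members of both classes rose. At 4 h 9 of 23 tested tau genes (39.1%) and 2 of 8 phi genes (25.0%) did, and at 14 h 9 (39.1%) and 3 (37.5%). At 4 h, 11 of 31 in all rose and 1 fell, against 2.59% and 0.386% of all genes. Beside GSTU17, GSTU11, GSTU5, GSTU4, GSTU24, GSTU6 and GSTU19, the risers were GSTU28 (AT1G53680) at 2.67 ± 0.53 (adjusted p = 0.0196), GSTF2 (AT4G02520) at 2.78 ± 0.57 (adjusted p = 0.0222), GSTU27 (AT3G43800) at 1.80 ± 0.43 (adjusted p = 0.0444) and GSTF6 (AT1G02930) at 1.78 ± 0.43 (adjusted p = 0.0433). The 4 h calls rest heavily on single libraries: 1 of the 12 remained without the CNQX 4 h library (GSTU17), 5 without CNQX uncut replicate 1, 6 without CNQX uncut replicate 2, and 7 without mock uncut replicate 1, mock uncut replicate 2, mock 14 h or CNQX 14 h. Over all genes tested, fewer 4 h calls stood without each of these libraries too, so the loss is not particular to the members. At 14 h, 12 rose and 1 fell, against 13.2% and 2.5% of all genes. One riser was GSTF12, given as a bound among the phi genes below. The others, in order of size, were 8.41 ± 0.52 for GSTU17, 4.74 ± 1.29 for GSTU18, 3.86 ± 0.52 for GSTU5, 3.81 ± 0.71 for GSTU4 and 3.33 ± 0.52 for GSTU28, followed by 3.06 ± 0.37 for GSTU8, 2.97 ± 0.56 for GSTF2, 2.54 ± 0.42 for GSTU27, 1.73 ± 0.41 for GSTU24, 1.62 ± 0.41 for GSTU6 and 1.54 ± 0.30 for GSTF10. Without the mock 14 h library 7 of the 13 calls remained, and without the CNQX 14 h library 8.

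Among these genes, GSTU8 climbed to 24 h, and GSTU27 and GSTU28 had their highest means at 14 h. GSTU8 (AT3G09270) stood at 21 and 11.9 CPM in the mock and 49.6 and 53.1 CPM in the CNQX uncut libraries. Its levels in the stumps were 50.1 and 58.8 CPM at 30 min, 46.8 and 61.5 CPM at 4 h, 272 and 219 CPM at 14 h and 785 and 322 CPM at 24 h. The 14 h and 24 h libraries were far above all others, with the mock 24 h library the highest. Its change was 2.27 ± 0.30 (adjusted p = 0.000648) for excision and 2.72 ± 0.33 (adjusted p = 0.000215) for late against early stumps. GSTU27 stood at 16 and 5.96 CPM in the mock and 31.8 and 30.1 CPM in the CNQX uncut libraries. The stump libraries had 39.3 and 25.1 CPM at 30 min, 37.5 and 94.3 CPM at 4 h, 106 and 111 CPM at 14 h and 98.3 and 81.7 CPM at 24 h. All stumps except CNQX at 30 min lay above every uncut library, and the excision change was 1.85 ± 0.34 (adjusted p = 0.00328). GSTU28 stood at 4.67 and 1.28 CPM in the mock and 3.82 and 8.92 CPM in the CNQX uncut libraries. The cut roots gave 5.12 and 4.7 CPM at 30 min, 15.4 and 47.4 CPM at 4 h, 45.3 and 44.3 CPM at 14 h and 4.86 and 9.38 CPM at 24 h. The CNQX 4 h and both 14 h libraries were the highest, and the 30 min and mock 24 h libraries lay within the uncut range. Its excision change was 1.67 ± 0.43 (adjusted p = 0.0156), which was lost without the 14 h libraries, without CNQX uncut replicate 1 and with the replicate number as a block.

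The tested phi genes were mostly highest at the last time. Of the 8 tested phi genes, 6 were highest at 24 h, 1 at 4 h and 1 in uncut tips. Of the 23 tau genes, 5 were highest at 30 min, 7 at 4 h, 4 at 14 h and 7 at 24 h. Without the mock 24 h library, 5 phi and 4 tau genes were highest at 24 h. Among all genes tested, with all 12 libraries, 28.8% were highest in uncut tips and 17.1% at 30 min. A further 11.0% were highest at 4 h, 11.0% at 14 h and 32.1% at 24 h. The tau count at 24 h was thus near the share of all genes. The shares of all genes without the mock 24 h library were not taken. For late against early stumps, the median was 1.01 over phi genes, with 4 up and none down, and -0.23 over tau genes, with 4 up and 5 down. Over all genes tested the median was 0.05, with 13.2% up and 6.74% down. GSTF13 had 5 counts in the early and 0 in the late stumps. Without the mock 24 h library the medians were 0.96 over phi and -0.47 over tau genes, against 0.08 over all genes tested. GSTF12 had 0 counts in both 30 min libraries and GSTU9 had 0 counts in the early stumps, and both are among those highest at 24 h. Since a member can pass the filter through the late stumps alone, these counts and medians describe the tested members. No test of the difference between the classes was made.

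GSTF2, an auxin- and ethylene-responsive protein that binds camalexin, stood at 2.04 and 1.7 CPM in the mock and 5.09 and 2.82 CPM in the CNQX uncut libraries. In the stumps it stood at 1.14 and 5.09 CPM at 30 min, 13.9 and 23.2 CPM at 4 h, 32.1 and 11.9 CPM at 14 h and 225 and 118 CPM at 24 h. It was close to uncut levels at 30 min, higher at 4 h and 14 h and highest in both 24 h libraries. Its change was 0.33 ± 0.69 (adjusted p = 0.835) at 30 min, 5.93 ± 0.55 (adjusted p = 1.39e-05) at 24 h and 3.002 ± 0.47 (adjusted p = 0.00148) for excision. Of the 1471 exon bases of GSTF2, 1222 lie within another annotated gene, and the strand setting is not known. Its close relative GSTF3 (AT2G02930) had 3 counts over all libraries. GSTF6, which acts in camalexin synthesis, stood at 7.29 and 11.9 CPM in the mock and 8.27 and 15.5 CPM in the CNQX uncut libraries. After excision it was at 5.12 and 4.7 CPM at 30 min, 23.1 and 51.9 CPM at 4 h, 24.5 and 14.9 CPM at 14 h and 89.6 and 98.2 CPM at 24 h. Both 30 min libraries lay below all uncut ones and both 24 h libraries above all others. Its change was 3.13 ± 0.41 (adjusted p = 0.000151) at 24 h and 1.17 ± 0.34 (adjusted p = 0.024) for excision, the latter lost in 7 of 23 alternatives.

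GSTF7 (AT1G02920) stood at 2.92 and 4.26 CPM in the mock and 10.8 and 8.45 CPM in the CNQX uncut libraries. Its levels in the stumps were 0.569 and 0 CPM at 30 min, 5.14 and 8.2 CPM at 4 h, 1.27 and 6.47 CPM at 14 h and 68.8 and 24.8 CPM at 24 h. It was likewise lowest at 30 min and highest at 24 h, with a change of 3.01 ± 0.60 (adjusted p = 0.00258) at 24 h that was 1.56 ± 0.84 (adjusted p = 0.28) without the mock 24 h library. GSTF12 (AT5G17220), the TT19 protein needed for flavonoid pigments to accumulate in the vacuole, had 0 counts in the 4 uncut and both 30 min libraries. It stood at 1.03 and 0 CPM at 4 h, 15.6 and 3.98 CPM at 14 h and 9.38 and 11 CPM at 24 h. Against a floor of 3 counts over the uncut group, it was at least 32.5-fold higher at 14 h and at least 31.6-fold higher at 24 h (at least 34.9-fold without the mock 24 h library). The edgeR test passed at both times (adjusted p = 0.00509 and 0.00194), and DESeq2 passed neither. Chalcone synthase (CHS), the entry enzyme of flavonoid synthesis, rose for excision by 3.21 ± 0.31 (adjusted p = 0.000125). The other 4 genes of the list on flavonoid synthesis and deposition, DFR, LDOX, TT12 and PAP1, were below the filter, at 0 to 1.69 CPM in every library.

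GSTF13 (AT3G62760) went the other way. It stood at 25.4 and 12.3 CPM in the mock and 35.6 and 23.5 CPM in the CNQX uncut libraries. The stump libraries had 0.569 and 1.57 CPM at 30 min, 0 and 0 CPM at 4 h, 0 and 0 CPM at 14 h and 0 and 0 CPM at 24 h. All 4 uncut libraries lay above all 8 stumps, which held for 5.7% of all genes tested. The gene passed the test at each time, but single libraries decided some of these calls. The 30 min call was lost without either 30 min library or CNQX uncut replicate 1, the 4 h call without the CNQX 4 h library and the 14 h call without the CNQX 14 h library. It was lower by a ratio of 20.2 at 30 min (95% exact Poisson interval 8.52 to 62.8, counting error only) and by at least 36.6-fold at 24 h, against a floor of 3 counts over the group (at least 14.1-fold without the mock 24 h library, since the group is then 1 library). Over the same libraries the summed level of 5 root cap markers was also lower in every stump, and 4 markers of the stem cell niche stood at 12.3 to 40.9 CPM uncut and 0.784 to 18.2 CPM cut. The part of these markers in the values of GSTF13 was not tested.

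At 24 h, 15 of 31 members rose and 3 fell, against 21.3% and 12.1% of all genes. One riser was GSTF12, given as a bound above. Others were 8.80 ± 0.52 for GSTU17, 5.93 ± 0.55 for GSTF2, 5.93 ± 1.25 for GSTU9, 4.46 ± 0.52 for GSTU5 and 4.20 ± 0.38 for GSTU8, followed lower down by 3.13 ± 0.41 for GSTF6, 3.01 ± 0.60 for GSTF7, 2.71 ± 0.70 for GSTU10, 2.28 ± 0.43 for GSTU27, 1.80 ± 0.30 for GSTF10 and 1.50 ± 0.41 for GSTU24. The remaining risers were GSTU18, GSTU4 and GSTU16, and those that fell were GSTU13 (-1.12 ± 0.40), GSTU14 (-2.76 ± 0.73) and GSTF13. Without the mock 24 h library, which stands apart, 10 of these 18 calls remained and GSTU2 was called in addition. The 8 that were lost were GSTF7, GSTU9, GSTU10, GSTU13, GSTU14, GSTU16, GSTU18 and GSTU24. GSTU9 (AT5G62480) had 138 counts in the mock and 13 in the CNQX 24 h library, GSTU10 (AT1G74590) 109 and 18, and GSTU16 (AT1G59700) 72 and 5. Without it their changes at 24 h were 3.78, 0.91 and 1.78, none of which passed. Those of GSTU13, GSTU14, GSTU18 and GSTU24 were -0.54, -1.80, 2.83 and 1.14. GSTU17, GSTF2, GSTU8 and GSTU5 kept their calls, with 8.86 ± 0.60, 5.35 ± 0.66, 3.41 ± 0.40 and 3.77 ± 0.59. All 14 excision calls also stood without this library. Over all genes tested, the calls at 24 h were fewer without this library too.

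For late (14 h and 24 h) against early (30 min and 4 h) stumps, 8 of 31 members rose and 5 fell, against 13.2% and 6.74% of all genes. A member can pass the filter through the late stumps alone, so these counts describe the tested members. The risers were GSTU9, with 0 counts in the early stumps and at least 49.7-fold higher late, and 5.86 ± 1.09 for GSTF12, 3.26 ± 0.73 for GSTF7, 2.89 ± 0.47 for GSTF2, 2.72 ± 0.33 for GSTU8, 2.64 ± 0.34 for GSTU17, 1.68 ± 0.38 for GSTF6 and 1.11 ± 0.36 for GSTU27. Those that fell were the tau genes GSTU11, given above, and -2.57 ± 0.50 for GSTU14, -1.70 ± 0.32 for GSTU26, -1.69 ± 0.34 for GSTU6 and -1.32 ± 0.31 for GSTU13. Of the 160 late counts of GSTU9, 138 came from the mock 24 h library, and without it the bound was at least 10-fold and the call was lost (adjusted p = 0.065). The GSTU27 call, lost in 12 alternatives in all, was lost without it too (0.98 ± 0.39 (adjusted p = 0.126)), and GSTU2 was called lower in addition. Of the 13 calls, 4 stood without the 30 min libraries and 4 without the 24 h libraries. GSTU14 (AT1G27140) and its neighbour GSTU13 (AT1G27130), an enzyme of indole glucosinolate metabolism in leaves, were the pair that fell together. GSTU13 stood at 53.7 and 38.3 CPM in the mock and 47.7 and 41.8 CPM in the CNQX uncut libraries. The cut roots gave 70 and 66.6 CPM at 30 min, 89.4 and 90.2 CPM at 4 h, 41.9 and 55.7 CPM at 14 h and 11.8 and 32.6 CPM at 24 h. GSTU14 stood at 7.58 and 7.24 CPM in the mock and 16.5 and 7.51 CPM in the CNQX uncut libraries. In the stumps it stood at 23.9 and 16.5 CPM at 30 min, 28.8 and 29.6 CPM at 4 h, 8.88 and 16.4 CPM at 14 h and 0.347 and 2.76 CPM at 24 h. Both were highest at 4 h and lowest in the mock 24 h library. Their late against early changes were -1.32 ± 0.31 (adjusted p = 0.00979) and -2.57 ± 0.50 (adjusted p = 0.00377). Without the mock 24 h library both of these calls stood, and without both 24 h libraries both were lost.

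The 10 members below the filter had few counts or none. GSTU15 (AT1G59670) had 0 counts in all 12 libraries, which allows up to 0.909 CPM in the deepest and 1.90 CPM in the shallowest library at a limit of 3 counts, for counting error only. GSTF5 (AT1G02940) had 1 count, GSTF11 (AT3G03190) 8, GSTF4 (AT1G02950) 21 and GSTF14 (AT1G49860) 39 over all libraries. The others, GSTU3, GSTU12, GSTU21, GSTU23 and GSTF3, are given beside their neighbours. Of the 10, 5 are tau and 5 are phi genes.

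CNQX moved no member past the threshold. On simulated counts, a log2 change of 1 was recovered in 0% of changed genes in uncut tips and 0.5% in stumps. A change of that size could thus stand without a call. In uncut tips, in stumps, and for the difference between the CNQX effect in stumps and in tips, edgeR, DESeq2 and limma-voom each called 0 of 31 members, and 0.0% of all genes tested were called in each. At an unadjusted p under 0.05, edgeR gave 4, 1 and 2 members and 629, 327 and 390 of the 16820 genes. In uncut tips, 28 of 31 members had a positive estimate, against 53.3% of all genes, with a median of 0.65 against 0.05. GSTF12, at 0 counts in all 4 of these libraries, is counted among the 28 with an estimate of 0.00. These members share the same 4 libraries, so the count is a description. In the stumps 17 of 31 were positive, with a median of 0.02. The tips came from plants held 14 h on CNQX plates, the stumps from plants held 1 h on them before the cut. The CNQX effects in tips and stumps thus follow unlike exposures.

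The lowest p in uncut tips was that of GSTU8, which stood at 21 and 11.9 CPM in the mock and 49.6 and 53.1 CPM in the CNQX uncut libraries. Its change of 1.63 ± 0.47 (adjusted p = 0.978) had an unadjusted p of 0.00394 in the edgeR test. GSTU27 stood at 16 and 5.96 CPM in the mock and 31.8 and 30.1 CPM in the CNQX uncut libraries (1.46 ± 0.54 (adjusted p = 0.978)). The change of GSTU7 was 0.86 ± 0.38 (adjusted p = 0.978). For GSTU8 the CNQX effect in stumps minus that in tips was -1.88 ± 0.56 (adjusted p = 1). In the stumps the lowest p was that of GSTU25, with 0.73 ± 0.32 (adjusted p = 1). At the single times, with 1 library each and no test, the median log2 ratio of CNQX to mock over the tau genes was -0.02 at 30 min, 0.50 at 4 h, -0.02 at 14 h and -0.57 at 24 h. Over the phi genes it was -0.06, 0.34, -0.43 and -0.29, and over all genes it lay between -0.05 and 0.06. The 24 h ratio rests on the mock library that stands apart.

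**Figure D5:**
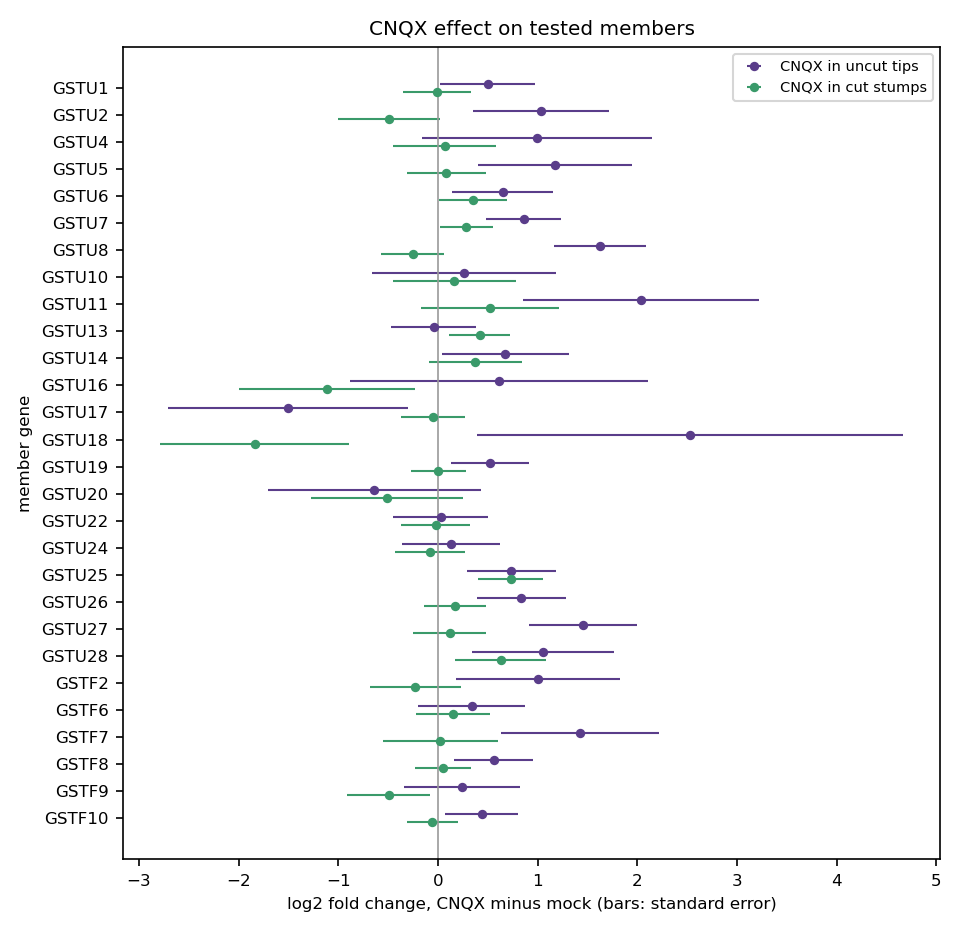
Log2 fold change of CNQX minus mock (horizontal axis; bars are standard errors) for tested members (vertical axis), purple for uncut tips and green for stumps. GSTU9, GSTF12 and GSTF13 are left out because groups with 0 counts leave no stable estimate; most purple points lie right of 0, and the green points lie on both sides.

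Other genes of glutathione metabolism, in lists chosen by function, changed as follows for excision, against the same 13.6% and 11.9% of all genes. Of 9 tested transferases of other classes 3 rose, the dehydroascorbate reductase DHAR1 by 2.90 ± 0.53 (adjusted p = 0.00297), GSTZ1 by 1.55 ± 0.29 (adjusted p = 0.0032) and GSTL3 by 2.03 ± 0.65 (adjusted p = 0.0369). Of 6 glutathione peroxidase-like genes 4 rose, led by GPX2 (3.28 ± 0.34 (adjusted p = 0.000165)). Of 9 genes of glutathione synthesis, reduction and turnover, 2 rose and 1 fell. The risers were glutathione reductase GR1 (1.56 ± 0.25 (adjusted p = 0.00162)) and glutathione synthetase GSH2 (0.71 ± 0.22 (adjusted p = 0.0332)), and the phytochelatin synthase PCS2 fell (-2.09 ± 0.57 (adjusted p = 0.0189)).

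Among 7 tested transporters of conjugates, ABCC6 and ABCC2 rose by 3.81 ± 1.21 and 0.72 ± 0.24, and ABCC3 fell by a log2 change of -1.60 ± 0.39. Of 11 tested genes known to respond to foreign chemicals along with the transferases, 4 rose, AKR4C8 (1.87 ± 0.30 (adjusted p = 0.00169)), OPR2, NAC032 and AKR4C9. Of 7 TGA and SCL14 regulators, TGA1 (1.20 ± 0.33) and TGA4 (2.68 ± 0.76) rose for excision, and at 30 min none of the 7 passed the edgeR test, nor had any an unadjusted p under 0.05. Of 4 tested camalexin and indole genes, GGP1, a peptidase that trims glutathione conjugates, rose by 3.30 ± 0.33 (adjusted p = 0.000175) at 30 min and 1.25 ± 0.26 (adjusted p = 0.00537) for excision. CYP79B2, an early enzyme of that pathway, rose by 3.04 ± 0.68 (adjusted p = 0.0277) at 30 min. Without the mock 24 h library the excision calls of GSTL3, GPX5, ABCC6, ABCC2 and AKR4C9 were lost, and the others named here stood.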

How the data were processed

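The authors deposited raw counts of reads per locus for 32833 loci in 12 libraries, in single tables and in a joint table that held the same number at every locus. HISAT2, DESeq2 and the TAIR10 build are named per the submitters' processing notes; no version, read counter, strand option or trimming step is given in the sources used here. Per the labels' protocols, RNA was amplified with the Nugen Ovation system. Rows that name no gene stayed out of library sizes: reads without a feature were 18.4% to 29.4% of all reads, and reads not uniquely aligned 37.6% to 65.3%.

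The counts were fitted with edgeR 4.0.16 in R 4.3.3, with TMM scaling and filterByExpr at a minimum count of 10, which kept 16820 genes. The quasi-likelihood F test used all 12 libraries, with 7 coefficients (the stages, and CNQX in uncut and cut tissue) and 5 residual degrees of freedom. Benjamini-Hochberg adjustment ran over all genes tested, and an adjusted p under 0.05 counted as a call. Values after ± are standard errors, taken as the absolute log2 fold change divided by the root of F. DESeq2 1.42.0, limma-voom (limma 3.58.1), other filters and scaling, and left-out libraries and times were alternatives. The test was checked on simulated counts, with 200 genes changed in each setting. For excision it recovered 2.5%, 78% and 92% of log2 changes of 1, 2 and 3. For CNQX it recovered 0%, 20.5% and 67.5% of them in uncut tips, and 0.5%, 64% and 87% in stumps.

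Called members were named where 12 or fewer per comparison, otherwise the 6 highest and 6 lowest per direction. Values in each library are given for members called for excision, for the leading members of each class and for neighbours in an array. From the other lists, up to 4 members with the lowest p were named. The members and lists were chosen with earlier results of these data known. Names, positions and sequences came from RefSeq TAIR10.1, whose nuclear chromosomes are those of TAIR10 and which matched 32548 loci; the count tables hold no coordinates. Coding sequences were aligned in pairs with Biopython 1.88. Intervals and floors, of 3 counts, cover counting error only.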

Additional observations from a re-analysis of the deposited data

How the results depend on the processing

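Of 78 calls of single members over the comparisons, 31 stood in every one of the 23 alternatives that gave a value, and none changed direction in any of them. Scaling by RLE, limma-voom, no low-count filter and leaving out organelle and ribosomal RNA loci moved no count of called members by over 1.5 times, and a stricter filter or DESeq2 did not either. Leaving out 1 library at a time gave 11 to 16 called members for excision, 3 to 9 at 30 min, 1 to 15 at 4 h, 7 to 14 at 14 h, 11 to 19 at 24 h, 10 to 15 for late against early stumps and 0 for each CNQX comparison. Over all genes tested, the calls at 30 min and at 14 h were also fewer without either library of that time. Leaving out the 30 min libraries took the 4 h count from 12 to 7 and the late against early count from 13 to 4. Over all genes these counts went from 500 to 302 and from 3348 to 741. Leaving out the 14 h libraries took the 4 h count to 4, and leaving out the 24 h libraries took the late against early count to 5. Over all genes these were 190 and 943. The cause was not tested.

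With the replicate number as a block in the fit, 13 members were called for excision, 6 at 30 min, 9 at 4 h, 11 at 14 h, 17 at 24 h, 13 for late against early stumps and 0 for each CNQX comparison; 9 single calls no longer passed, for excision that of GSTU28. The 2 uncut replicates of each treatment share only a number, and the labels do not say that it marks a batch. Over 16820 genes, the difference of replicate 1 minus 2 in mock and in CNQX uncut tips correlated with r = 0.36.

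With 1 library per treatment and time, a time rests on 2 libraries that are treated as replicates across CNQX and mock. Members under about 1 CPM, such as GSTU15, GSTF5 and GSTF3, were not measurable at this depth.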
